A study of Mus musculus with 3 samples.

Results

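The purinergic genes examined here encode receptors for extracellular nucleotides and adenosine, together with an enzyme that removes the nucleotides. P2ry10 is counted with them by sequence, although its product is known to respond to lysophosphatidylserine. The members were 10 named genes, P2ry2, P2ry6, P2ry10, P2ry13, P2ry14, P2rx4, P2rx7, Adora2a, Adora2b and Entpd1. A probe set was taken as a member's when the probe annotation table assigned it to exactly 1 gene and that gene was a member. This gave 15 of 38533 probe sets and 8 of 17886 genes. The table assigned no probe set to Adora2a or Adora2b, genes of Gs-coupled adenosine receptors, and these were not analysed here.

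The cells were dendritic cells (DCs), which take up and present antigen to T cells, grown from wild-type mouse bone marrow in a 5-day culture with GM-CSF, the cytokine commonly used to raise DCs from marrow. Such cultures are known to hold macrophage-like as well as DC-like cells. The cells were sorted by their surface level of PDL2, which binds the T cell inhibitory receptor PD-1. The 3 groups were untreated PDL2+ cells, PDL2- cells given lipopolysaccharide (LPS, a bacterial ligand of Toll-like receptor 4) at 100 ng/ml for a time not stated, and untreated PDL2- cells. All 3 groups came from the same kind of culture, and neither the number of mice nor of cultures behind each is stated in the labels. Each group had 1 array, so no difference has a replicate check, there was no test, and a gene is called higher or lower by size alone, at 2-fold or more. The number of arrays limits the precision. In such bulk samples, fewer cells of a type and less RNA per cell cannot be told apart.

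ATP, ADP, UTP, UDP and UDP-sugars leave stressed, dying or activated cells and act on 2 families of receptors: P2Y receptors, which couple to G proteins, and P2X receptors, which are ATP-gated cation channels. Ectonucleotidases at the cell surface break these nucleotides down, and CD39, the product of Entpd1, takes ATP and ADP to AMP, which CD73 (Nt5e) turns into adenosine for the adenosine receptors. In myeloid cells these signals are known to bear on migration, uptake of dying cells, release of interleukin 1β and the restraint of inflammation.

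Of the 8 genes measured, 5 had much lower signals in PDL2+ than in PDL2- untreated cells: P2ry6, P2ry13, P2ry14, P2rx7 and Entpd1. P2ry10 was 7.48-fold higher in PDL2+ cells. Of the 10926 genes tested in this comparison, 13% were lower and 10.1% higher by at least 2-fold. P2rx4 differed by less than 2-fold in each of the 3 comparisons. After LPS, P2ry2 was 3.90-fold higher, and Entpd1 and P2rx7 were 3.68-fold and 3.49-fold lower. Of all genes tested, 9.17% were higher and 13.8% lower after LPS by at least 2-fold.

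Several members lie close together in the mouse genome, and promoter windows of 5 members are shown. In the RefSeq annotation of GRCm38.p6, P2rx7 and P2rx4 are adjacent protein-coding genes on chromosome 5, P2ry6 and P2ry2 are adjacent on chromosome 7, and P2ry14 and P2ry13 both lie on chromosome 3. The RefSeq promoter table held windows for 7 of the 8 measured genes, 14 windows in all, each with 250 bases before and 50 bases after an annotated start, and P2ry6 was not matched. P2rx7 and P2rx4 are printed as neighbours with unlike patterns, P2ry13 and P2ry14 as nearby genes that were both lower in PDL2+ cells, and P2ry10 as the gene that was higher there. The windows run 5′ to 3′ on the gene's strand in GRCm38.p6, and capitals mark the motif matches described after them.
P2rx7, chr5:122643677-122643976, plus strand: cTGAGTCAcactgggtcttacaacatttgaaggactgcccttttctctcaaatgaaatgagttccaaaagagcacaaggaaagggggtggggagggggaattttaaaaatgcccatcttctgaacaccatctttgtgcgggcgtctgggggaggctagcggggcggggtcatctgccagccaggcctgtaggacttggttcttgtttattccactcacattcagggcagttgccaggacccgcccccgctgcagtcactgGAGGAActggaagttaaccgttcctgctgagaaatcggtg
P2rx4, chr5:122707294-122707593, plus strand: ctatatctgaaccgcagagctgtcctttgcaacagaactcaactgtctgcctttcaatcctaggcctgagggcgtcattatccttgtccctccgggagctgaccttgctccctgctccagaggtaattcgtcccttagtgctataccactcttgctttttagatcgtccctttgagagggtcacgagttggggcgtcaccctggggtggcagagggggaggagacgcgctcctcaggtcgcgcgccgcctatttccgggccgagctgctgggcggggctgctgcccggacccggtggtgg
P2ry13, chr3:59210833-59211132, minus strand: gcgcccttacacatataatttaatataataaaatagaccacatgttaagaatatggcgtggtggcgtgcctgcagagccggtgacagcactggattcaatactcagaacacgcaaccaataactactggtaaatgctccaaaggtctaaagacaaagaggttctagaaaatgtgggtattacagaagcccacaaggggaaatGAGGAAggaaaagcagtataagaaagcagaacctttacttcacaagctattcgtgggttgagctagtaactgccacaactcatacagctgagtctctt
P2ry14, chr3:59153443-59153742, minus strand: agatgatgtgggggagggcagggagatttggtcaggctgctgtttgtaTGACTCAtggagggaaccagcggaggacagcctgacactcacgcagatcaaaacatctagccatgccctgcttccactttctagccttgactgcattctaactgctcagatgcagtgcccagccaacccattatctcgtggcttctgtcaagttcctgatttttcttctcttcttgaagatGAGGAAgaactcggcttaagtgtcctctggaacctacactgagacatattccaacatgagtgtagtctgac
P2ry10, chrX:107088242-107088541, plus strand: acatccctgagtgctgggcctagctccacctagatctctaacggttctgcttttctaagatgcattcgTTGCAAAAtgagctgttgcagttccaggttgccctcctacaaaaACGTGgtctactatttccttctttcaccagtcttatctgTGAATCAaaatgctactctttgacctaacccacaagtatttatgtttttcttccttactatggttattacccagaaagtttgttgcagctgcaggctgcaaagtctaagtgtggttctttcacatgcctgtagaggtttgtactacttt

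Motifs were searched on both strands: GAGGAA (a core bound by PU.1, a myeloid lineage factor), TGANTCA (AP-1), TGACGTCA (CRE), TTGCNNAA (C/EBP-like), CACGTG (E-box) and ACGTG (HIF core). The E-box contains the HIF core. GAGGAA was found in 9 of the 14 member windows, against 28.3% of 32851 promoter windows of the same length. It was in all 4 windows of P2ry14, both of P2rx7, the window of P2ry13, 1 of 2 for Entpd1 and 1 of 2 for P2ry10, and in neither window of P2ry2 nor the window of P2rx4. Some windows of 1 gene overlap (P2ry14 and P2ry2), so the same letters can be counted in more than 1 window, and windows are not separate observations. TGANTCA was found in 4 of the 14 windows, against 7.81% of all windows: the printed windows of P2rx7, P2ry14 and P2ry10, and another of P2ry14. The C/EBP-like motif was found in 4 windows (10.8% of all), the E-box in 2 (7.15%), which are the overlapping windows of P2ry2 and hold the same match, and the HIF core in 3 (19.6%). The CRE was found in no member window (1.79% of all). A match is a description of the letters and not a bound site.

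Signals are quantile-normalized log2 values, and 5.58, the median of all values, served as a floor below which a signal was not taken as measured. Where 1 of the 2 arrays was at the floor, the fold is a lower bound and is given as at least N-fold. A gene with several probe sets is represented by the brightest. Of the 8 genes, 6 were above the floor on all 3 arrays, and P2rx7 and Entpd1 were at the floor in PDL2+ cells. Each of the 15 probe sets exceeded the floor on 1 or more arrays.

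**Figure D1:**
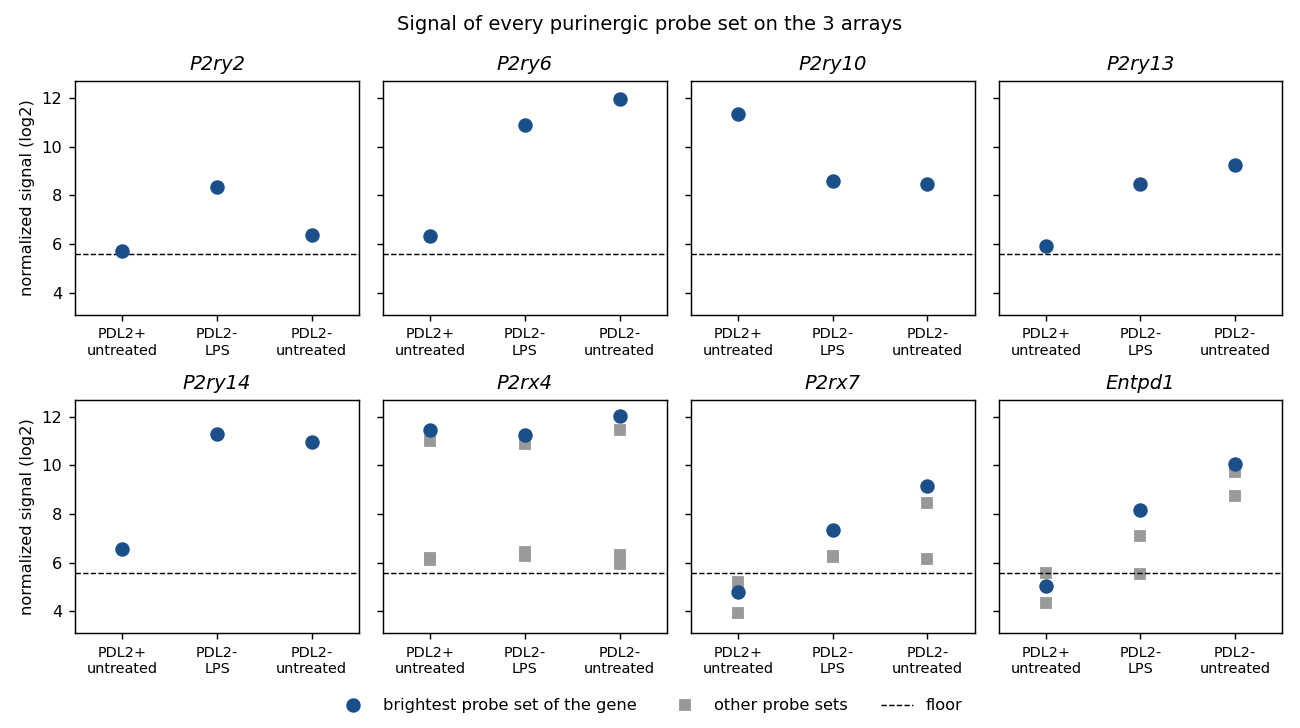
Normalized log2 signal (vertical axes) of all 15 purinergic probe sets on the 3 arrays (horizontal axes), 1 panel per gene; circles are the brightest probe set of a gene, squares its other probe sets, and the dashed line is the floor of 5.58. P2ry6, P2ry13, P2ry14, P2rx7 and Entpd1 are lowest on the PDL2+ array, P2ry10 is highest there, and P2ry2 is highest on the LPS array.

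P2ry6 encodes the P2Y6 receptor for UDP, which couples to Gq and is known in microglia for promoting phagocytosis. Its log2 signal was 6.33 in PDL2+ cells, 10.91 in LPS-treated PDL2- cells and 11.95 in untreated PDL2- cells. Both PDL2- arrays were high and the PDL2+ array lay close to the floor. The gene was 49.2-fold lower in PDL2+ than in PDL2- untreated cells, which placed it as number 5 from the lowest of 10926 genes. It was 24.0-fold lower than in LPS-treated cells. After LPS it was 2.05-fold lower, just past the 2-fold line, with a log2 difference of -1.04. That call was lost with the deposited values (-0.96, or -0.94 with median centring). Over all genes this comparison had a median of -0.09 with the deposited values, against 0.03 after quantile normalization.

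P2ry2, the neighbour of P2ry6, encodes the receptor for ATP and UTP that also couples to Gq and is known for drawing phagocytes to dying cells. Its log2 signal was 5.72 in PDL2+ cells, 8.36 in LPS-treated PDL2- cells and 6.40 in untreated PDL2- cells. The LPS array stood above the other two, and the PDL2+ signal lay just above the floor. P2ry2 was 3.90-fold higher after LPS and 6.22-fold lower in PDL2+ than in LPS-treated cells. Between PDL2+ and PDL2- untreated cells it differed by less than 2-fold (1.60-fold lower). With the floor at the 75th percentile (7.80), the untreated signals were at the floor, and the difference after LPS was 0.55 on the log2 scale, below 2-fold.

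The genes of 2 Gi-coupled receptors on chromosome 3 were both lower in PDL2+ cells. P2ry13 encodes a receptor for ADP, and its log2 signal was 5.91 in PDL2+ cells, 8.48 in LPS-treated PDL2- cells and 9.24 in untreated PDL2- cells. It was 10.1-fold lower in PDL2+ than in PDL2- untreated cells and 5.96-fold lower than in LPS-treated cells, and after LPS it was within 2-fold (1.69-fold lower). P2ry14 encodes the receptor for UDP-glucose and related sugars, and its log2 signal was 6.55 in PDL2+ cells, 11.28 in LPS-treated PDL2- cells and 10.97 in untreated PDL2- cells. The PDL2+ array was low for both genes, and the PDL2- arrays lay within 2-fold of each other. P2ry14 was 21.5-fold lower in PDL2+ than in PDL2- untreated cells and 26.6-fold lower than in LPS-treated cells. No other measured decrease among the members was larger in that last comparison. After LPS it was within 2-fold (1.24-fold higher).

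P2ry10 is a P2Y receptor by sequence, and its product is known to respond to lysophosphatidylserine rather than to nucleotides. Its log2 signal was 11.36 in PDL2+ cells, 8.58 in LPS-treated PDL2- cells and 8.45 in untreated PDL2- cells. The PDL2+ array stood above both PDL2- arrays, which were alike to within 1.09-fold. P2ry10 was 7.48-fold higher in PDL2+ than in PDL2- untreated cells and 6.85-fold higher than in LPS-treated cells. It was the only member higher than its comparison group in either of these comparisons by the 2-fold rule. P2ry10b, the adjacent related gene on chromosome X, had a log2 signal of 4.48 in PDL2+ cells, 8.16 in LPS-treated cells and 7.61 in untreated PDL2- cells. It was thus at least 4.10-fold lower in PDL2+ than in PDL2- untreated cells, the opposite direction to P2ry10. Each was read by 1 probe set, and cross-hybridization between the related transcripts was not tested.

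P2rx7 encodes the P2X7 channel, which opens at high ATP and is known for triggering the NLRP3 inflammasome. Its brightest probe set had log2 signals of 4.81 in PDL2+ cells, 7.36 in LPS-treated PDL2- cells and 9.16 in untreated PDL2- cells. The PDL2+ array was at the floor. The log2 difference of P2rx7 was -3.58 or less in PDL2+ against PDL2- untreated cells. It was at least 3.44-fold lower than in LPS-treated cells, and 3.49-fold lower after LPS. The second probe set gave at least 7.42-fold lower in PDL2+ than in PDL2- untreated cells and 4.61-fold lower after LPS. The third, with 6.23 in LPS-treated and 6.14 in untreated PDL2- cells, was within 2-fold after LPS (1.07-fold higher) and had only a bound of 1.47-fold lower in PDL2+ cells. Its signals were all near the floor. Against LPS-treated cells these 2 probe sets gave bounds below 2-fold in PDL2+ cells (1.61-fold and 1.57-fold lower).

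P2rx4, adjacent to P2rx7, encodes the P2X4 channel, found largely in lysosomes. Its brightest probe set had log2 signals of 11.47 in PDL2+ cells, 11.25 in LPS-treated PDL2- cells and 12.03 in untreated PDL2- cells. The 3 arrays lay within 2-fold of each other. The log2 difference was -0.56 between PDL2+ and PDL2- untreated cells, -0.78 after LPS and 0.22 between PDL2+ and LPS-treated cells. A second bright probe set gave -0.44, -0.54 and 0.10 for the same differences. The remaining 2 probe sets, with signals from 5.96 to 6.43, also stayed within 2-fold.

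Entpd1, the CD39 ectonucleotidase gene, had log2 signals of 5.02 in PDL2+ cells, 8.16 in LPS-treated PDL2- cells and 10.04 in untreated PDL2- cells with its brightest probe set. The signal was highest in untreated PDL2- cells, lower after LPS and at the floor in PDL2+ cells. Entpd1 was at least 22.1-fold lower in PDL2+ than in PDL2- untreated cells, at least 5.99-fold lower than in LPS-treated cells, and 3.68-fold lower after LPS. Its other 2 probe sets had the same direction. They gave 17.7-fold and at least 8.95-fold lower in PDL2+ than in PDL2- untreated cells, and 6.35-fold and at least 8.95-fold lower after LPS. In PDL2+ against LPS-treated cells 1 of them was 2.79-fold lower and the other was at the floor on both arrays.

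**Figure D2:**
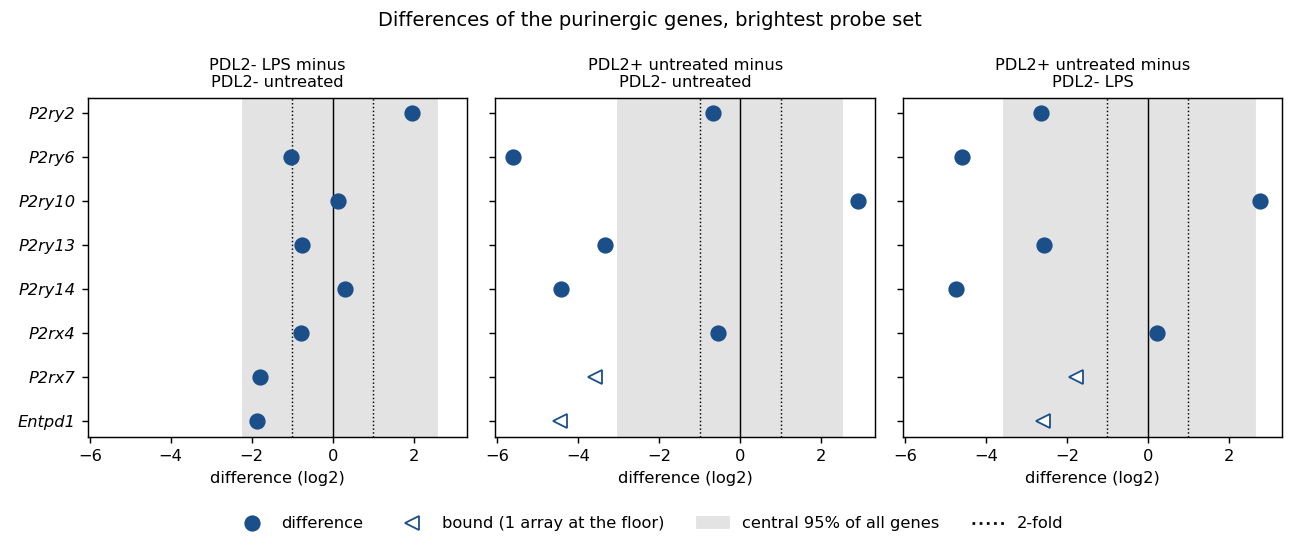
Log2 differences (horizontal axes) of the 8 purinergic genes (rows), 1 panel per comparison; filled circles are differences, open triangles lower bounds on a decrease, grey bands the central 95% of all genes tested, and dotted lines 2-fold. After LPS all 8 genes lie inside the grey band, whereas P2ry6, P2ry14, Entpd1, P2rx7 and P2ry13 lie below it and P2ry10 above it in the comparison of PDL2+ with PDL2- untreated cells.

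In PDL2+ against PDL2- untreated cells, 5 of the 8 members were lower and 1 was higher, against 13% and 10.1% of the 10926 genes tested. The median log2 difference of the members was -3.46, against 0.01 over all genes. After LPS, 3 members were lower and 1 was higher, against 13.8% and 9.17% of 11000 genes, with a median of -0.77 against 0.03. In PDL2+ untreated against LPS-treated PDL2- cells, 6 were lower and 1 was higher, against 12.6% and 15.6% of 11042 genes, with a median of -2.58 against -0.05. The comparisons share arrays and are not independent of each other. As a technical measure, the log2 differences given by a gene's first and second brightest probe sets deviated from each other with a robust SD of 0.29 in the PDL2 comparison, 0.41 after LPS and 0.44 in the third. Biological variation is not part of this spread.

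Genes with the nearest profile were sought for the members above the floor on all 3 arrays whose signals spanned at least 2-fold. This left out P2rx7 and Entpd1, at the floor in PDL2+ cells, and P2rx4, which spanned less than 2-fold. The search ran among 9850 genes above the floor on all 3, by the Euclidean distance between log2 levels centred on their own mean. With only 3 arrays, many genes can share a profile. Nearest to P2ry6 were the ubiquitin ligase gene Rnf128 (distance 0.05), the growth factor gene Igf1 (0.14) and the complement gene C1qc (0.16). The lysosomal protease genes Ctsd (0.08) and Ctsl (0.11) and the ceramidase gene Acer3 (0.08) were nearest to P2ry13, and the phosphatase gene Ptpre (0.20), the macrophage elastase gene Mmp12 (0.21) and the tetraspanin gene Cd53 (0.27) to P2ry14. For P2ry10 these were Mtmr4 (0.01), Cnn2 (0.08) and Rassf2 (0.11), and for P2ry2 Tor1aip1 (0.08), Dyrk2 (0.08) and Azi2 (0.15).

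Markers of macrophages went in the same direction as the lower members in PDL2+ against PDL2- untreated cells. All 9 macrophage markers were lower in PDL2+ than in PDL2- untreated cells, with a median log2 difference of -4.57, and their summed linear signal was 3620 in PDL2+ cells, 47839 in LPS-treated cells and 64849 in untreated PDL2- cells. Mrc1, the mannose receptor gene, was the macrophage marker at the floor in PDL2+ cells (5.51), and Adgre1, a macrophage surface receptor gene, was at 8.06 there, against 12.01 in PDL2- untreated cells. All 5 monocyte markers measured were lower as well, with summed signals of 900, 19173 and 11096 in PDL2+, LPS-treated and untreated PDL2- cells. Cd14 was the brightest of them in LPS-treated cells (13.86) and weighed most in that sum. It was 3.37-fold higher after LPS, whereas 2 of the 5 were lower and the median log2 difference was -0.76. The part of these cell types in the members' differences was not tested. After LPS, 1 macrophage marker was higher and 3 were lower, with a median of -0.49.

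All 8 DC markers were above the floor on all 3 arrays, among them Itgax, the CD11c gene, with 9.81 in PDL2+, 10.80 in LPS-treated and 11.48 in untreated PDL2- cells, 3.18-fold lower in PDL2+ than in PDL2- untreated cells. Flt3, Zbtb46, Batf3 and Irf4, a receptor and factors of the DC lineage, were higher in PDL2+ cells, by 1.89 to 3.38 on the log2 scale. These were 4 of the 8 DC markers, and H2-Ab1, Cd74 and Ciita were within 2-fold in that comparison. Cd74 (14.33 on all 3 arrays) and H2-Ab1 (13.84 to 14.29) lay close to the highest deposited value, 14.82. Whether such bright signals can still show a difference was not tested. The neutrophil markers did not follow the sort, with 0 of 8 past 2-fold in PDL2+ against PDL2- untreated cells, and 5 of 8 were lower after LPS. Other markers differed with the sort: Kit, 1 of 3 mast cell and basophil markers above the floor, was 11.4-fold higher in PDL2+ than in PDL2- untreated cells. Mcpt8 and Cpa3, of the same list, were within 2-fold in that comparison (1.23-fold and 1.18-fold higher). Of 4 plasmacytoid DC markers, Siglech and Ccr9 were 3.47-fold and 4.75-fold lower there and Bst2 was 2.24-fold higher. Markers of platelets, which express P2ry1 and P2ry12, were above the floor on all arrays, with 1 of 4 lower in PDL2+ cells (Pf4). Pdcd1lg2, which encodes PDL2, was 10.1-fold higher in PDL2+ than in PDL2- untreated cells. Its log2 signal of 8.40 in untreated PDL2- cells was above the floor, and it was 2.06-fold higher after LPS.

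**Figure D3:**
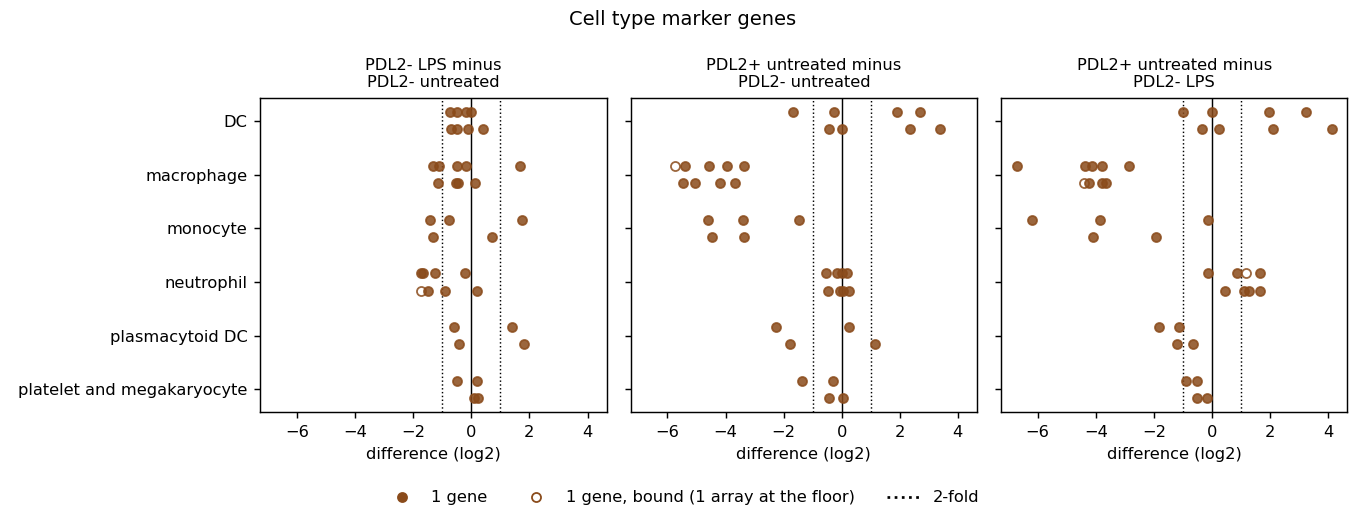
Log2 differences (horizontal axes) of marker genes of DCs and other cells (rows), 1 panel per comparison, with 1 point per gene; open circles are bounds with 1 array at the floor, and dotted lines mark 2-fold. All 9 macrophage and 5 monocyte markers lie below the 2-fold line in PDL2+ against PDL2- untreated cells.

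The rest of the pathway was read from lists of 103 further genes, of which 94 had a probe set. In PDL2+ against PDL2- untreated cells 12 of 75 tested were higher and 22 lower, against 10.1% and 13% of all genes. After LPS 12 of 73 were higher and 23 lower, against 9.17% and 13.8%. In PDL2+ against LPS-treated cells 16 of 73 were higher and 19 lower, against 15.6% and 12.6%. The medians were -0.18, -0.07 and -0.06 on the log2 scale. The other genes of the pathway thus went in both directions in each comparison.

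Among the other receptors, P2ry12, the ADP receptor gene beside P2ry13, was above the floor only in untreated PDL2- cells. Its log2 signal was 4.27 in PDL2+ cells, 4.83 in LPS-treated cells and 7.70 in untreated PDL2- cells, so it was at least 4.36-fold lower in each of the first 2. P2ry1, another ADP receptor gene, was 2.19-fold higher in PDL2+ than in PDL2- untreated cells. P2rx5, an ATP-gated channel gene, was 2.84-fold higher there and 4.73-fold higher than in LPS-treated cells. P2ry4, P2rx1 and P2rx3 were at the floor on all 3 arrays. The brightest probe set of Adora3, the adenosine A3 receptor gene, was also at the floor on all arrays, while another reached 6.41 in untreated PDL2- cells.

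Relatives of the P2Y receptors were mostly lower in PDL2+ cells, with 5 of 7 lower and 1 higher against PDL2- untreated cells, where 13% and 10.1% of all genes were. Gpr171 differed by -3.81 on the log2 scale, and Cysltr1, a receptor gene for cysteinyl leukotrienes, was at least 9.35-fold lower. Gpr183, whose product guides cells by oxysterols, was 7.38-fold lower. A dimmer Gpr183 probe set, above the floor on all arrays, gave a smaller log2 difference of -1.60. After LPS that probe set differed by 1.19, while the brightest was within 2-fold (-0.006). Gpr132 was 4.99-fold higher in PDL2+ than in PDL2- untreated cells and 3.49-fold higher after LPS. Lpar6, a lysophosphatidic acid receptor gene, was 20.6-fold lower after LPS and within 2-fold in PDL2+ cells (1.38-fold lower), and Gpr171 was 8.64-fold lower after LPS.

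Of the other ectonucleotidase genes, 3 could be compared, and none was past 2-fold in PDL2+ against PDL2- untreated cells. Nt5e, the CD73 gene, had log2 signals of 6.36 in PDL2+ cells, 6.55 in LPS-treated cells and 6.39 in untreated PDL2- cells, which lay within 2-fold of each other and close to the floor. Entpd3, Entpd8, Enpp3 and Alpl were at the floor on all arrays. Enpp4, an ectoenzyme known to act on diadenosine triphosphate, was at least 7.77-fold higher after LPS and 6.40-fold lower in PDL2+ than in LPS-treated cells. Entpd5, a UDPase gene of the endoplasmic reticulum, was 2.81-fold lower in PDL2+ cells and 2.72-fold lower after LPS, but 3 other probe sets, above the floor on all arrays, gave smaller log2 differences, from -1.05 to -0.36 in PDL2+ cells and from -0.65 to -0.30 after LPS.

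Genes for nucleotide release and for the handling of adenosine also differed. Panx1, a channel that releases ATP, was 2.79-fold lower in PDL2+ than in PDL2- untreated cells and within 2-fold after LPS (1.27-fold higher). Gja1, a connexin gene, was at the floor in untreated PDL2- cells, and was at least 4.34-fold higher in PDL2+ cells and at least 14.5-fold higher after LPS. Its other probe sets, also at the floor in untreated PDL2- cells, gave smaller bounds on the log2 scale. These were 0.005 to 1.43 in PDL2+ cells, where some were at the floor on both arrays, and 0.74 to 3.09 after LPS. The nucleoside transporter genes Slc29a1 and Slc29a3 were 13.4-fold and 2.55-fold lower in PDL2+ cells and 2.92-fold and 3.25-fold lower after LPS. A dimmer Slc29a3 probe set, above the floor on all arrays, gave log2 differences of -1.06 in PDL2+ cells and -0.55 after LPS, the latter within 2-fold. Dpp4, the CD26 gene, whose product binds adenosine deaminase in humans, was 4.77-fold higher in PDL2+ cells. Ada was at the floor on all arrays. Pnp, a purine nucleoside phosphorylase gene, was 2.44-fold higher after LPS and 3.14-fold lower in PDL2+ than in PDL2- untreated cells.

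**Figure D4:**
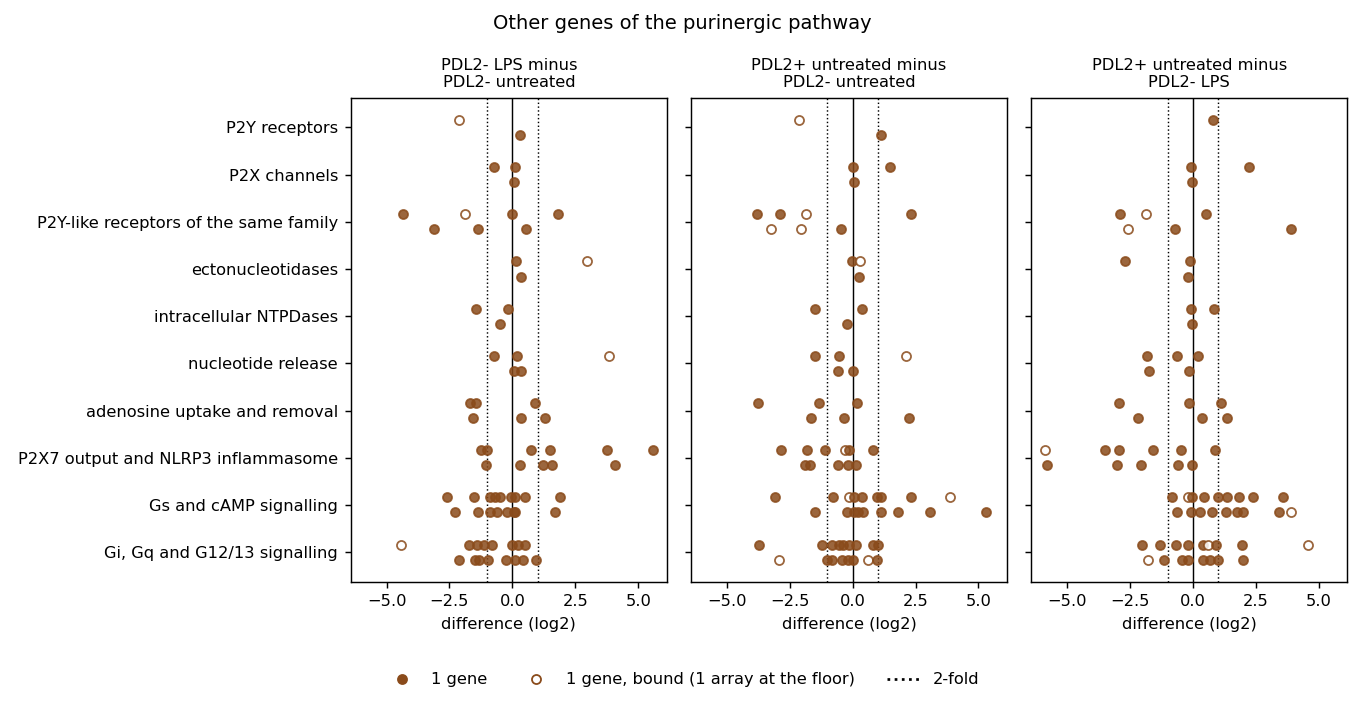
Log2 differences (horizontal axes) of the other purinergic pathway genes by list (rows), 1 panel per comparison, with 1 point per gene; open circles are bounds with 1 array at the floor, and dotted lines mark 2-fold. In the inflammasome row, 6 of 11 genes lie above 2-fold after LPS, whereas 0 lie above it in the other 2 panels.

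In the list for P2X7 output and the NLRP3 inflammasome, 6 of 11 genes were higher after LPS and 3 were lower (Pycard, Nek7 and Txnip). The median log2 difference was 1.20. Of all genes, 9.17% were higher and 13.8% lower in this comparison. Il1b, the interleukin 1β gene, differed by 4.08, Casp4 by 3.76 and Nlrp3, the sensor gene, by 1.58 on the log2 scale after LPS, while P2rx7 itself was lower. In PDL2+ against PDL2- untreated cells 5 of the 11 were lower and 0 higher (13% and 10.1% of all genes), among them Nlrp3 (3.70-fold lower), Il18 (3.49-fold lower) and Il1b (3.23-fold lower). Casp1 (1.49-fold lower) and the pore gene Gsdmd (1.11-fold higher) were within 2-fold.

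Genes for Gs and cAMP signalling, the path used by the adenosine A2 receptors, had more members higher than lower in PDL2+ cells. Of 18 tested, 7 were higher and 2 lower than in PDL2- untreated cells, with a median of 0.39, against 10.1% and 13% of all genes. After LPS 2 of 17 were higher and 4 lower, with a median of -0.51, against 9.17% and 13.8% of all genes. The adenylate cyclase gene Adcy6 was 38.9-fold higher in PDL2+ cells, and Adcy7, another cyclase gene, was 8.46-fold lower. The phosphodiesterase genes Pde4d and Pde4b, whose products break down cAMP, were at least 14.8-fold and 8.32-fold higher, and Crem, a cAMP-responsive transcription factor gene, was 5.05-fold higher. The list thus holds both makers and removers of cAMP among its higher genes.

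Genes for Gi, Gq and G12/13 signalling, used by the P2Y receptors, were lower or within 2-fold by their brightest probe sets in both comparisons with untreated PDL2- cells. In PDL2+ cells 4 of 17 were lower and 0 higher, against 13% and 10.1% of all genes, and after LPS 7 of 16 were lower and 0 higher, against 13.8% and 9.17%. Dimmer probe sets of Gna13 (1.21 and 1.09 on the log2 scale), Gnai3 (1.16) and Arrb2 (1.11) were past 2-fold higher in PDL2+ cells, as were those of Gna13 (1.20 and 1.15) and Prkcd (1.22) after LPS, so the count of 0 higher holds for the brightest probe sets alone. Gna15, a Gq family gene of blood cells, was at least 7.60-fold lower in PDL2+ cells, and Prkcb, a protein kinase C gene, 13.3-fold lower. Arrb1, the β-arrestin 1 gene, was within 2-fold between PDL2+ and PDL2- untreated cells (1.11-fold higher), but was at the floor after LPS, at least 21.4-fold lower.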

How the data were processed

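RNA of 3 DC samples was hybridized to Affymetrix mouse arrays, 1 per group. The deposited values are log2 summaries, 1 per probe set and array, judging by their range (3.19 to 14.82). How the authors normalized and summarized them is stated neither in the labels nor in the file. Of 38546 probe sets, 13 controls were left out. The 75th percentiles of the deposited arrays differed by 0.22, so values were quantile-normalized. Probe sets named with several genes (449) or unnamed (4110) were used for no gene; symbols of those with 1 gene were updated by Entrez number in a RefSeq table (33787 matched, among them all 8 measured members). Each gene took the probe set brightest on average, and the floor was the median of all values. Folds of genes at the floor on 1 array are bounds. Of the deposited probe sets, 18.2% held the same value on all 3 arrays, none of them a member's; 1 P2rx4 probe set held the same value on 2.

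The members, the lists and the processing were chosen with earlier results of these data known. All members were named, list genes past 2-fold could be named and are otherwise counted, and the 3 nearest genes were named for each member above the floor on all arrays with a range of at least 2-fold. List genes within 2-fold or at the floor were named after their values were seen. Motifs were also chosen after values were seen, and 3 longer ones (interferon response element, EICE and NF-kB site) were also searched in the member windows and are not reported here. The steps were tested on simulated data with Python 3.11.15, numpy 2.4.6 and pandas 2.3.3. Alternatives were other normalizations, floors, probe set rules and fold limits.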

Additional observations from a re-analysis of the deposited data

How the results depend on the processing

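With 1 array per group no replicate could be left out. No paired analysis was possible because each group had 1 array and no test was made. Counts of member genes differed from those reported by more than 1.5 times in 3 cases. With the floor at the 75th percentile, 0 members were higher after LPS and 2 were lower in PDL2+ than in LPS-treated cells (P2ry6 and P2ry14, with P2rx7 no longer tested). At 1.5-fold, 5 members were lower after LPS, with P2ry13 and P2rx4 added. The shares of all genes called at that floor and at that fold limit were not computed, so these counts have no background beside them. The higher floor itself removes signals below 7.80. No called member changed sign under the other normalizations or probe set rule. A change of floor could not reverse a sign, because both arrays of a comparison share the floor. Of 118 log2 differences of members under the other normalizations, floors and probe set rule, 24 moved by at least the robust SD between probe sets. The decreases of P2rx7 and Entpd1 in PDL2+ against PDL2- untreated cells were 4.35 and 5.02 on the log2 scale with no floor. P2ry6, P2ry13, P2ry14, P2rx7 and Entpd1 were lower in that comparison, and P2ry10 higher, under all alternatives run. P2ry6 after LPS was past 2-fold only after quantile normalization.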
